A study of Homo sapiens with 6 samples.

Results

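The genes described here are 10 feedback genes of the ERK pathway, taken by their symbols: the dual-specificity phosphatase genes Dusp1, Dusp4, Dusp5 and Dusp6, the Sprouty genes Spry1, Spry2 and Spry4, the Sprouty-related genes Spred1 and Spred2, and the ETS factor gene Etv5. All 10 were among the 38986 gene symbols of each library, and 9 of them passed the filter on low counts, as did 12938 genes in all. RNA-seq counts came from 6 libraries in 2 groups of 3, both labelled as mCherry-positive 293T cells, a human embryonic kidney line. The genotype was given as STAT6 overexpression (wild-type STAT6) in the first group and as WT (Mock) in the second. Both groups were grown in DMEM with fetal bovine serum. The labels number the libraries without naming separate cultures, so the spread behind each p-value may be technical only.

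ERK is the last kinase of the cascade that runs from receptor tyrosine kinases through Ras, Raf and MEK. Active ERK induces genes whose products damp the same cascade: dual-specificity phosphatases remove the activating phosphates from MAP kinases, and Sprouty and Spred proteins act upstream at the level of Ras and Raf. Etv5 is a transcription factor whose gene is induced by receptor signalling through ERK. In cells of the melanocyte lineage this cascade is driven by receptors such as Kit and, in many melanomas, by mutated Braf or Nras. Transcript levels of these genes are often read as a measure of ERK output, and neither ERK phosphorylation nor protein was measured here.

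The labels and the files differ in 3 respects that touch every direction below: the organism, the level of Stat6 and the cell type markers. The symbols are those of mouse genes, and Stat6, the gene named as overexpressed, was lower in the libraries labelled STAT6 (33.6 ± 1.53 CPM, SD, n = 3) than in those labelled Mock (94.5 ± 1.49 CPM), a log2 fold change of -1.49 (adjusted p = 7.47e-26). CPM are counts per 1000000 counts of the TMM-scaled library total. "Higher" therefore means higher in the libraries labelled STAT6, as the labels have it. Of 8 kidney epithelium markers, Pax8, Umod and Aqp2 had 0 counts in every library, and Lhx1 was the only marker of that list that passed the filter on low counts, with 198 counts summed over the STAT6 libraries and 0 over the Mock libraries. The 9 pigment cell markers together took 17010 to 17160 CPM in the libraries labelled STAT6 and 14670 to 15020 CPM in the others, led by Tyrp1. Whether the files belong to these labels, or the groups were exchanged, cannot be told from the sources used here, and an exchange would turn every direction given below. In bulk libraries such as these, fewer cells of a type and less RNA per cell cannot be told apart.

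Most of the feedback genes were higher in the libraries labelled STAT6, but the families were not uniform. Of the 9 genes tested, 6 were higher (Dusp1, Dusp4, Dusp6, Spry2, Spry4 and Etv5), 2 were lower (Spry1 and Spred2) and Spred1 did not pass an adjusted p of 0.05. The groups differed over most of the transcriptome, so these counts stand against a high background. Among all tested genes 72.6% passed in either direction, 35.8% as higher and 36.8% as lower. The 8 of 9 feedback genes called lie near this background. Changes of at least 2-fold were fewer, in 4 of the 9 genes (Dusp1, Spry2, Spry4 and Etv5), where 15.5% of all tested genes reached that size and 10.6% reached it as higher. The median log2 fold change was 0.66 over the 9 genes and -0.0033 over all genes tested, and the median size without regard to sign was 0.93 against 0.35.

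**Figure D1:**
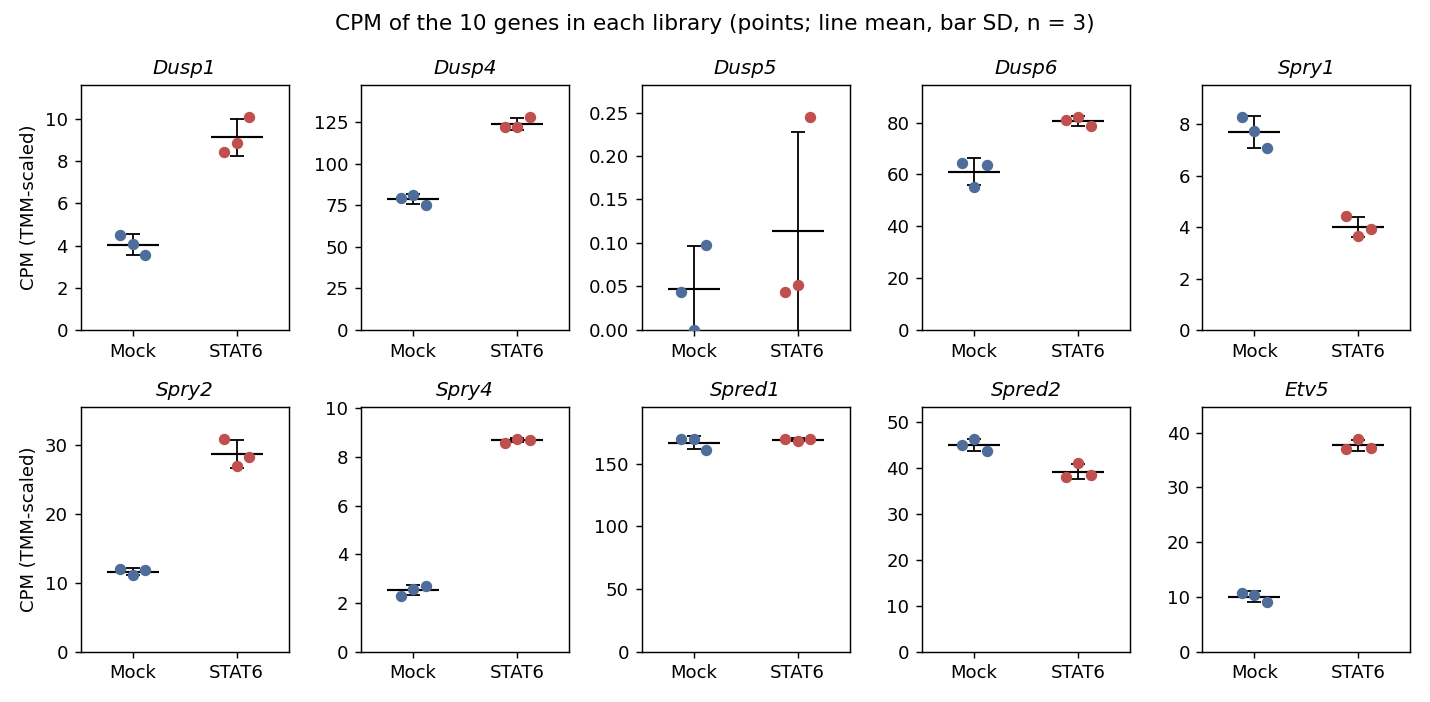
TMM-scaled CPM of the 10 feedback genes in each library, with the mean (line) and SD (bar) of the 3 libraries of a group; each panel has its own axis from 0. Of the 9 tested genes Spred1 alone overlaps between the groups, and Dusp5 lies at or below 0.245 CPM in every library.

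Among the phosphatases, Dusp6, a cytoplasmic enzyme specific for ERK, rose least. It stood at 81.0, 82.2 and 78.8 CPM in STAT6 libraries 1 to 3 and at 64.4, 55.2 and 63.8 CPM in Mock libraries 1 to 3. The lowest Mock value was that of library 2, and no STAT6 library came down to the Mock range. The log2 fold change was 0.40 (SE 0.05, adjusted p = 1.22e-08), a 1.32-fold rise with a 95% interval of 1.23 to 1.41. This size exceeded that of 55.1% of all tested genes, so Dusp6 sat near the middle of the transcriptome. Its call was lost in the test for a change beyond 1.5-fold (adjusted p = 1).

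Dusp4, a nuclear phosphatase that acts on ERK and other MAP kinases, had 122.1, 122.0 and 128.3 CPM against 79.5, 81.1 and 75.3 CPM. The groups lay well apart, with an SD of 3.62 CPM in the libraries labelled STAT6 and 3.01 CPM in those labelled Mock. The rise was 1.58-fold (95% interval 1.497 to 1.67, adjusted p = 3.41e-17). In the test for a change beyond 1.5-fold it passed narrowly (adjusted p = 0.0359), since most of its interval lies above that size.

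Dusp1, a nuclear phosphatase of the immediate early class that also acts on p38 and JNK, was the phosphatase with the largest rise of the 3 tested. Its values were 8.42, 8.86 and 10.1 CPM against 4.51, 4.10 and 3.53 CPM. These rest on 172 to 206 counts in a library labelled STAT6 and on 95 to 108 in a Mock library. The change was 2.27-fold (95% interval 1.91 to 2.70, adjusted p = 1.18e-10).

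Dusp5, a nuclear phosphatase specific for ERK, was close to undetected. Counts were 1, 1 and 5 in STAT6 libraries 1 to 3, and 1, 0 and 3 in the Mock libraries. The ratio of 7 counts to 4, corrected for depth, was 2.14 with an exact 95% interval of 0.543 to 9.95, which covers counting error only. A difference was not detectable at this depth. Fitted with no filter on low counts, Dusp5 had an adjusted p of 0.49.

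The Sprouty genes moved in opposite directions. Spry4, the family member most often used as a readout of ERK, had 8.60, 8.76 and 8.72 CPM in the libraries labelled STAT6 and 2.30, 2.59 and 2.72 CPM in the Mock libraries. Its 3 STAT6 values were nearly equal, with a coefficient of variation of 0.997% where counting noise alone gives about 7.41%. The rise was 3.41-fold (95% interval 2.83 to 4.10, adjusted p = 2.8e-14) and rests on 53 to 83 counts in a Mock library.

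Spry2, which inhibits signalling between growth factor receptors and Raf, rose as well. It had 31.0, 27.0 and 28.3 CPM against 12.02, 11.1 and 11.8 CPM, with no overlap. The change was 2.48-fold (95% interval 2.24 to 2.73, adjusted p = 2.18e-18).

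Spry1, a Sprouty gene with the same type of inhibitory product, fell. Libraries labelled STAT6 held 4.45, 3.66 and 3.92 CPM and Mock libraries 8.29, 7.76 and 7.06 CPM. Every Mock library was above every library labelled STAT6. The log2 fold change was -0.93 (SE 0.13, adjusted p = 4.05e-08), so that the level was 1.91-fold higher in the Mock libraries. It passed the test for a change beyond 1.5-fold as well (adjusted p = 0.00578), the only feedback gene to do so as lower.

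Because these genes were counted in the same libraries, their ratio within a library is free of any scaling between libraries. The size of such a ratio depends on transcript lengths. Its change between groups does not, if both groups use the same transcript forms of each gene, which was not tested. Spry2 had 6.96, 7.38 and 7.22 counts for each count of Spry1 in the libraries labelled STAT6, and 1.45, 1.43 and 1.67 in the Mock libraries. The change of this ratio was 2.25 on the log2 scale. For Spry4 over Spry1 the ratio went from 0.277, 0.333 and 0.384 in the Mock libraries to 1.93, 2.39 and 2.22, a change of 2.73, so the order of the counts of these genes was inverted between the groups. The ratio of Spry4 to Spry2 changed less, by 0.48. In each of 8 such ratios, chosen after the values were seen, the groups did not overlap, and the exact permutation test over the 20 assignments of the libraries gave p = 0.1, 2-sided, the smallest it can give (0.1 after adjustment over the 8).

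**Figure D2:**
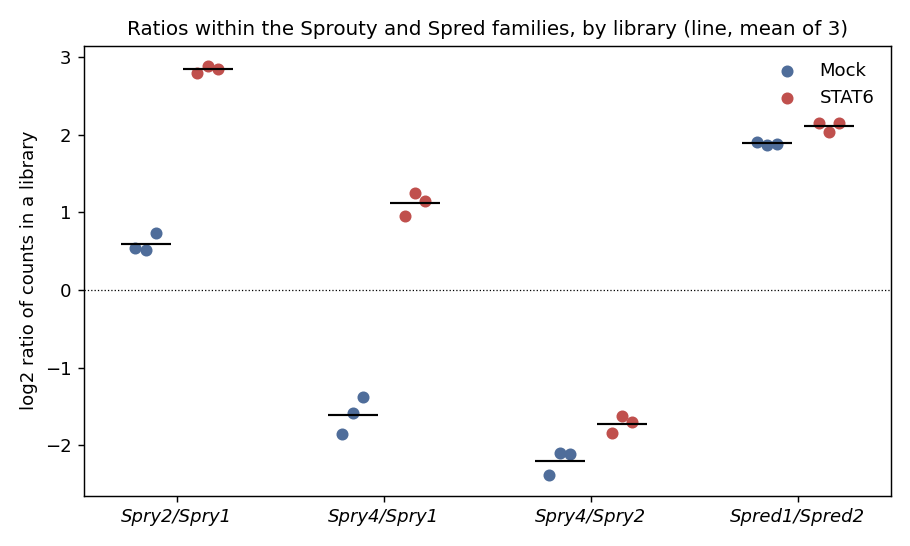
Log2 ratio of the counts of 2 genes within each library, for 3 pairs of Sprouty genes and for Spred1 over Spred2, with the mean of 3 libraries as a line. The ratios to Spry1 separate the groups by 2.25 and 2.73, and the ratio of Spred1 to Spred2 by 0.23.

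The Spred genes, whose products bring the Ras inhibitor neurofibromin to the membrane, moved little. Spred1 stood at 169.7, 168.2 and 170.1 CPM in the libraries labelled STAT6 and at 169.5, 170.0 and 160.9 CPM in the Mock libraries. The values of the groups overlapped, with Mock library 3 the lowest. The log2 fold change of 0.02 had a 95% interval of -0.05 to 0.09 (adjusted p = 0.551), so a change of more than 1.07-fold upward lies outside this interval. Its sign turned with library totals alone (-0.051) and without Mock replicate 3 (-0.0072), and neither passed.

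Spred2 was slightly lower, at 38.01, 40.9 and 38.4 CPM against 45.0, 46.3 and 43.7 CPM. The groups did not overlap, although the highest library labelled STAT6 (library 2) and the lowest Mock library (library 3) lay close together. The log2 fold change was -0.20 (SE 0.05, adjusted p = 0.000417), and the test for a change beyond 1.5-fold did not pass (adjusted p = 1). The ratio of Spred1 to Spred2 was 4.46, 4.11 and 4.43 against 3.77, 3.67 and 3.68, a change of 0.23 on the log2 scale.

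Etv5 had the largest change of the 9 genes. It stood at 37.0, 38.9 and 37.1 CPM in the libraries labelled STAT6 and at 10.8, 10.4 and 9.03 CPM in the Mock libraries. The lowest STAT6 value was more than 3 times the highest Mock value. The rise was 3.76-fold (95% interval 3.42 to 4.14, adjusted p = 1.44e-23), larger in size than the change of 93.2% of all tested genes. For Spry4 that share was 92.4%, for Spry2 89.0%, for Dusp1 87.3%, for Spry1 82.6% and for Dusp4 73.9%.

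Set against Dusp6 within each library, the changes of the feedback genes were unequal. The ratio of Etv5 to Dusp6 was 0.456, 0.473 and 0.472 in the libraries labelled STAT6 and 0.167, 0.189 and 0.141 in the Mock libraries, a change of 1.503 on the log2 scale. For Spry4 over Dusp6 the change was 1.38, for Dusp1 over Dusp6 0.77 and for Dusp4 over Dusp6 0.26. The last rests on values of 1.51, 1.48 and 1.63 against 1.24, 1.47 and 1.18, in which Mock library 2 came next to the STAT6 range. The groups did not overlap in 8 of the 9 tested genes, where 74.6% of all tested genes had no overlap. A change beyond 1.5-fold was called in 6 of the 9 (Dusp1, Dusp4, Spry1, Spry2, Spry4 and Etv5), against 21.5% of all tested genes.

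Profiles over the 6 libraries paired the feedback genes within and across families. Measured by the root mean square difference of log2 CPM centred on each gene's mean, Dusp4 and Dusp6 were nearest to each other (0.165), as were Dusp1 and Spry2 (0.172), Spry4 and Etv5 (0.181), and Spred1 and Spred2 (0.118). Spry1 had no close partner, its nearest being Spred2 at 0.351. Outside the 10 genes, those closest to Dusp6 among 9702 compared were Hexim1 (0.0214, Pearson r = 0.9952 over 6 libraries), Tpst2 (0.0298, r = 0.991) and Cript (0.0314, r = 0.9891). These likenesses mostly restate the difference between the groups, with log2 fold changes of 0.39, 0.39 and 0.41 beside 0.40 for Dusp6.

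Relatives of the feedback genes extended the same families. Etv4, an ETS factor of the same subgroup as Etv5, rose from 1.43 ± 0.261 to 6.25 ± 0.235 CPM (SD, n = 3), a 4.38-fold change (adjusted p = 8.71e-14), while the third of the subgroup, Etv1, was at 14.96 against 12.99 CPM (adjusted p = 0.014). Besides under the stricter thresholds, the Etv1 call was lost with library totals alone (0.114), with DESeq2 (0.0565) and without Mock replicate 3 (0.0675). Spred3 rose 2.23-fold, from 3.76 to 8.45 CPM (adjusted p = 5.85e-10), unlike Spred1 and Spred2 with log2 fold changes of 0.02 and -0.20. Spry3 held 0 counts over the libraries labelled STAT6 and at most 1 in a Mock library, and it was not tested.

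Of 6 other MAP kinase phosphatase genes, 5 were tested, 4 were higher and 1 was lower. Over all tested genes 35.8% were higher and 36.8% lower. The largest rises were in phosphatases that act mainly on p38 and JNK. Dusp10 rose from 3.40 ± 0.573 to 26.4 ± 0.407 CPM (7.82-fold, adjusted p = 2.51e-25), Dusp8 from 5.04 ± 0.113 to 26.6 ± 0.973 CPM (5.26-fold, adjusted p = 2.3e-24) and Dusp16 from 39.7 ± 2.55 to 96.7 ± 2.20 CPM (2.44-fold, adjusted p = 7.13e-24). Dusp7, a cytoplasmic ERK phosphatase related to Dusp6, was at 27.6 against 24.1 CPM (adjusted p = 0.0149), and besides under the stricter thresholds this call was lost with library totals alone (0.0995) and without STAT6 replicate 3 (0.0769), Mock replicate 1 (0.0584) or Mock replicate 3 (0.165). Dusp2, a nuclear phosphatase of the same group as Dusp1, Dusp4 and Dusp5, fell (log2 fold change -0.89, adjusted p = 0.000599). Dusp9 held at most 1 count in a library and was not tested. In the list of p38 and JNK kinases themselves, 4 of 10 tested genes were higher and 4 were lower, near the shares over all tested genes. Their median log2 fold change was 0.04. The smallest adjusted p belonged to Map2k4 (0.60), Map2k6 (-1.30), Mapk11 (-0.98) and Mapk8 (0.39).

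**Figure D3:**
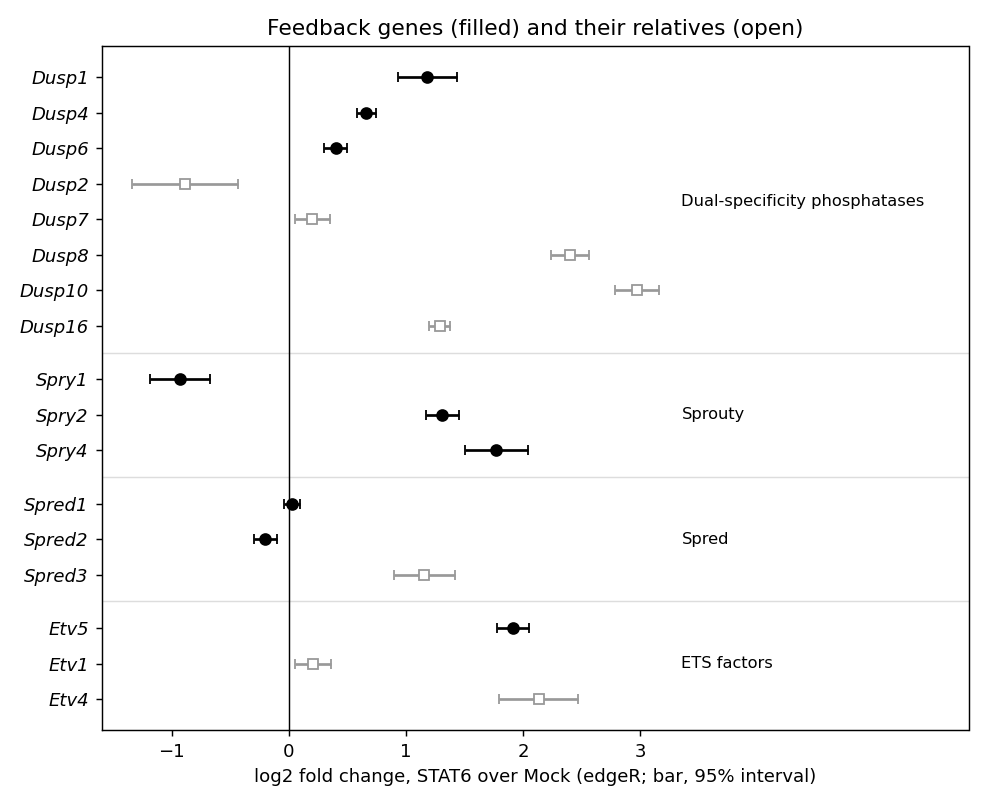
Log2 fold change (STAT6 over Mock, edgeR) with its 95% interval for the tested feedback genes (filled) and their relatives (open), by family. Spry1, Spred2 and Dusp2 lie below 0 and Dusp10 lies highest, at 2.97.

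The MAPK Pathway Activity Score (MPAS) is a set of 10 transcripts used to read ERK output in tumours, 5 of which are feedback genes named above. Of the 10, 8 were higher and 1 was lower, beside 35.8% higher and 36.8% lower over all tested genes. Their median log2 fold change was 1.54, against -0.0033 over all genes tested. Besides Etv5, Spry2, Dusp4, Spry4, Dusp6 and Etv4, the higher genes were Ccnd1, the gene of cyclin D1 (6.03-fold, adjusted p = 1.3e-37), and the ephrin receptor gene Epha2, at 3.17 ± 0.273 against 0.369 ± 0.136 CPM (adjusted p = 1.22e-12). Epha2 rested on 12, 6 and 10 counts in the Mock libraries and passed the filter on low counts only through the libraries labelled STAT6. Its relative Epha4 went the other way, with 3 counts summed over the STAT6 libraries and 94 over the Mock libraries. Those 3 counts all came from STAT6 library 1, and the ratio of Mock to STAT6 was 25.7 with an exact 95% interval of 8.52 to 126.8, which covers counting error only. The Mock libraries held 13, 35 and 46 of these counts, and Epha4 passed the filter on low counts only through them. Epha2 and Epha4 are both included in the counts and the median given for this score. Phlda1 did not pass, at 316.4 ± 5.38 against 320.4 ± 10.8 CPM (adjusted p = 0.61). The 5 feedback genes in this score were all higher, with log2 fold changes from 0.40 for Dusp6 to 1.91 for Etv5.

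Transcripts of the cascade itself went both ways. Of 20 tested genes from Ras to ERK and the adaptors, 7 were higher, 6 lower and 7 did not pass, beside 35.8% higher and 36.8% lower over all tested genes. Their median log2 fold change was 0.04 and their median size without regard to sign was 0.18, against 0.35 over all genes tested. A change of at least 2-fold was called in 0 of the 20, against 15.5% of all tested genes. Among those with small adjusted p were the phosphatase gene Ptpn11 (log2 fold change 0.59), which promotes Ras activation, the MEK gene Map2k1 (0.38) and the Ras exchange factor gene Sos1 (-0.58). Other inhibitors of Ras and ERK signalling were divided as well, 5 of 13 being higher and 6 lower around a median of -0.03. Those with the smallest adjusted p were Pebp1, which encodes a Raf inhibitor (-0.43), the Ras GTPase-activating genes Rasa1 (-0.39) and Rasa2 (0.49), and Erf, an ETS repressor held in check by ERK (0.47).

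Genes that feed the cascade differed more. Of 19 receptor and ligand genes, 11 were tested, of which 7 were higher and 2 lower around a median of 0.58. Over all tested genes 35.8% were higher and 36.8% lower. Kit, the receptor for stem cell factor, went from 0.475 ± 0.325 to 12.6 ± 0.437 CPM (log2 fold change 4.63, adjusted p = 7.2e-17). The Mock value rests on 10, 4 and 25 counts, so the size of this change is uncertain. Kit passed the filter on low counts only through the libraries labelled STAT6, where it was high. Kitl, the gene of stem cell factor, was lower (-2.81, edgeR, adjusted p = 8.46e-06). It had 4, 0 and 6 counts in the libraries labelled STAT6 and 37, 26 and 24 in the Mock libraries. Kitl passed the filter on low counts only through the Mock libraries, where it was high. Kit and Kitl are both included in the counts of higher and lower genes and in the median above. The receptor gene Axl rose from 7.599 ± 0.742 to 115.9 ± 5.25 CPM (3.92, adjusted p = 7.95e-35) and Fgfr3 from 4.67 ± 0.944 to 24.6 ± 2.24 CPM (2.42, adjusted p = 4.6e-15), whereas Pdgfrb fell from 16.2 ± 1.07 to 3.50 ± 0.445 CPM (-2.20, adjusted p = 1.24e-19). Hgf, Areg and Ereg held 0 CPM in both groups. Downstream, 2 of the 10 tested genes of ERK substrates were higher and 6 lower, beside the same shares over all tested genes. The median was -0.34. Among them Elk3, a ternary complex factor, rose (1.01) and so did Mknk2 (0.57), a kinase of the translation factor eIF4E, while the ribosomal S6 kinase genes Rps6ka3 (-0.65) and Rps6ka6 (-1.48) fell.

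**Figure D4:**
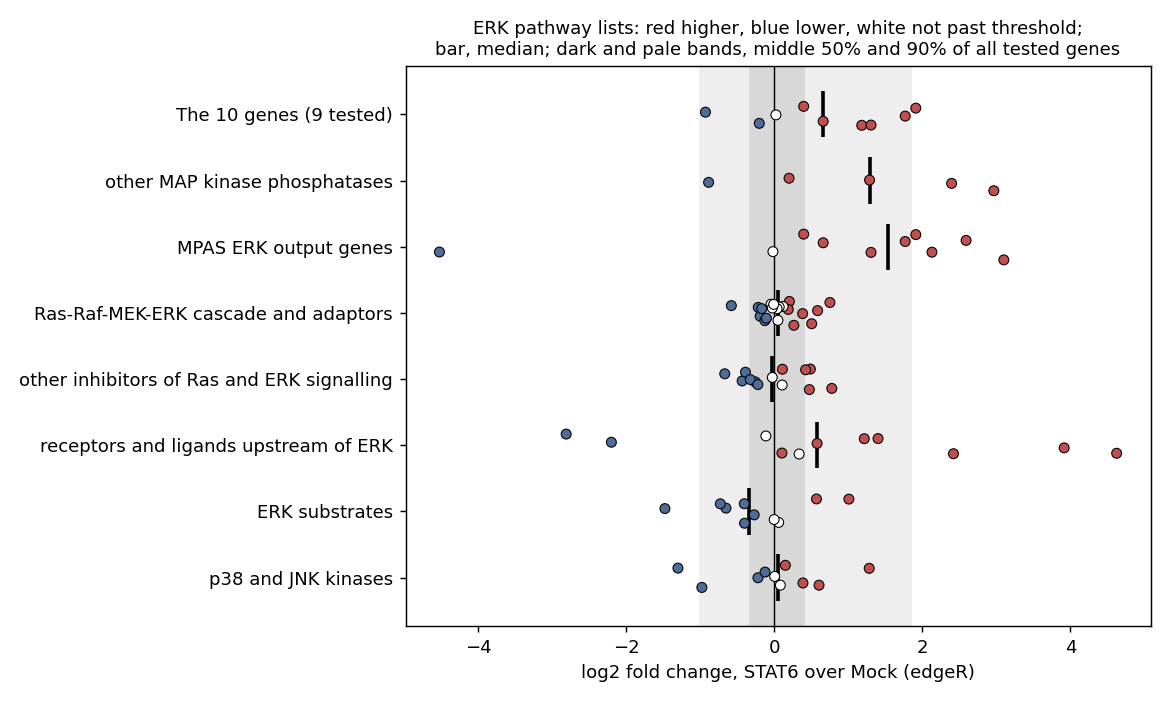
Log2 fold change (STAT6 over Mock, edgeR) of each tested gene in the feedback set and 7 related lists, red where higher, blue where lower and white where not past the threshold, with the list median as a bar over the middle 50% and 90% of all tested genes (bands). The lists of cascade genes and of other inhibitors centre near 0 (medians 0.04 and -0.03), and the feedback genes have a median of 0.66; the leftmost point is Epha4, whose fitted value rests on 3 counts in the libraries labelled STAT6.

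Markers of other cell types differed between the groups in part. The 6 fibroblast markers together took 78.6 to 84.9 CPM in the libraries labelled STAT6 and 18.8 to 20.7 CPM in the Mock libraries. Col1a1 was higher (log2 fold change 4.02) and Col1a2 lower (-2.64) there, and Dcn and Lum held at most 1 count in a library. The 7 macrophage and leukocyte markers took 3.73 to 4.59 against 1.60 to 1.91 CPM, with Adgre1 at 0 in every library and Ptprc at most at 2 counts. The 4 endothelial markers took 0.588 to 1.03 against at most 0.262 CPM, with Cdh5 at 0, and the 5 keratinocyte markers 3.40 to 4.85 against 1.01 to 2.63 CPM, with Krt10 and Epcam at 0. Of the 9 pigment cell markers 5 were higher and 3 lower, beside 35.8% and 36.8% of all tested genes, with Tyr the furthest (log2 fold change -3.38). The part of these differences in the levels of the feedback genes was not tested.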

How the data were processed

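Per the submitters' processing notes, FastQC, STAR, Salmon and edgeR were used with the build GRCh37. Versions, the strand setting and the way reads were counted per gene are not given in the sources consulted. Per the labels' protocols, a stranded mRNA kit was used. The deposited values are whole-number counts per gene symbol, 19894773 to 29802693 in a library. The symbols are mouse symbols, so the notes' build was not used and no coordinates are given.

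The fit used edgeR 4.0.16 (R 4.3.3) on these counts. The filterByExpr filter left 12938 genes with 99.93% of counts, and TMM factors ran from 0.968 to 1.03. Group was the only term of the quasi-likelihood test (robust, 2-sided). Benjamini-Hochberg adjustment covered every gene tested, and the threshold was 0.05. The SE is the log2 fold change over the square root of F. The fit was tested on simulated data in which most genes were unchanged. In these data 72.6% of tested genes passed the threshold, a setting that the simulation does not cover.

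The feedback genes and the lists were chosen with earlier results of these data known. All 10 feedback genes are named, with Stat6, their relatives, the 4 genes of smallest adjusted p in each list and the 3 genes nearest to Dusp6 with a mean of at least 5 CPM; profiles used log2(CPM + 0.5). Any other gene was named after its values were seen. Some genes that this rule takes are left out of the text. Libraries of a group differed by more than counting noise, so none was a copy. Alternatives were 2 other scalings, 2 other filters, DESeq2 1.42.0, limma-voom 3.58.1, a replicate block, each library left out, an adjusted p of 0.01 and a test for a change beyond 1.5-fold (glmTreat).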

Additional observations from a re-analysis of the deposited data

How the results depend on the processing

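Each of the 9 tested feedback genes was refitted under 15 alternatives. Dusp1, Dusp4, Spry1, Spry2, Spry4 and Etv5 kept their direction and their side of the threshold in all 15, with log2 fold changes of 1.08 to 1.26, 0.59 to 0.68, -1.02 to -0.87, 1.23 to 1.35, 1.70 to 1.82 and 1.82 to 1.96. Dusp6 (0.32 to 0.43) and Spred2 (-0.28 to -0.18) did so in 14, both losing the call only in the test beyond 1.5-fold. Spred1 changed sign with library totals alone (-0.051) and without Mock replicate 3 (-0.0072), its range over the libraries left out being -0.0072 to 0.032, never past the threshold. Over all 42 genes refitted, 601 of 630 values kept direction and side, 27 lost the call and 2 reversed. In the test beyond 1.5-fold, 1807 genes were higher and 972 lower, against 4638 and 4761. It called 1 feedback gene lower, 0 other MAP kinase phosphatases lower, 1 cascade gene higher and 0 lower, 0 other inhibitors higher and 0 lower, 1 ERK substrate higher and 3 lower, and 1 p38 or JNK kinase higher and 2 lower; that test asks for a larger change. Of the MPAS genes, 2 were lower with library totals alone and 0 with a filter of 1 CPM in 3 libraries, and with that filter 1 receptor or ligand gene was lower, since fewer genes were tested. With the replicate block 4643 genes were higher and 4779 lower, and no call of a feedback gene changed. Of the 6 libraries, 5 correlated best with their own number, but the correlations between same-numbered libraries were weak, at 0.0181 to 0.0961. The labels name no pairing, and the main fit held no replicate term. Depth left Dusp5 untested. It also limits the precision of Spry4, whose spread was below counting noise in both groups. Its coefficients of variation were 0.997% and 8.37% where counting gives 7.41% and 12.4%. In the libraries labelled STAT6 the same held for Spry1 (10.0% where counting gives 10.9%), and also for Dusp6, Spred1 and Etv5. In the Mock libraries the spread of Spry2 and Spred2 was below counting noise as well.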

Other observations

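Beyond the MAP kinase phosphatases, 15 other symbols of the Dusp family were listed, a set chosen after the data were seen. Of these 9 were tested, and 4 were higher and 5 lower in STAT6 libraries, beside 35.8% and 36.8% of all tested genes. Dusp15 had 17, 16 and 16 counts against 0, 3 and 0. It passed the filter on low counts only through the libraries labelled STAT6, so its size is not ranked with the others. The ratio was 19.9 with an exact 95% interval of 6.43 to 99.95 that covers counting error only. Dusp3, a small atypical phosphatase also called VHR, went from 84.3 to 199.9 CPM (log2 fold change 1.25, edgeR, adjusted p = 7.47e-26) and Dusp14 from 1.35 to 3.72 CPM (1.46, adjusted p = 2.22e-08). Dusp18 fell from 47.4 to 18.6 CPM (-1.35, adjusted p = 1.78e-21). Dusp11, which acts on RNA, had 200.3 against 213.4 CPM (-0.09, adjusted p = 0.0161).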
